A study of Homo sapiens with 9 samples.

Results

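The transcripts of 10 aldehyde dehydrogenase genes were followed in HT-29 cells across 3 doses of 5-Aza. The genes are ALDH1A1, ALDH1A2, ALDH1A3, ALDH1B1, ALDH1L1, ALDH2, ALDH3A1, ALDH3A2, ALDH3B1 and ALDH3B2. They were chosen by name, each stands on a single entry of the deposited tables, and together they are 10 of the 23284 gene symbols listed there and 10 of the 19 symbols of the aldehyde dehydrogenase family. ALDH3A1 is also among the genes that the study picked from its own expression results for a check by qRT-PCR, so its direction at 5 µM is not independent of that choice.

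HT-29 is a long-established epithelial line from a human colon adenocarcinoma. The compound 5-Aza (5-Aza-deoxycytidine) is a cytidine analog that traps DNA methyltransferases and leaves newly made DNA with less methylation. Cultures grown as monolayers received DMSO vehicle alone (0 µM, the control), 5 µM 5-Aza or 10 µM 5-Aza for 5 days. Each dose had 3 libraries, labelled as biological replicates from separate cultures, and all 9 were sequenced from both fragment ends over 100 bases. Gene levels are in FPKM, fragments per kilobase of transcript scaled to the fragments mapped, a unit per length in which levels of different genes may be compared. The deposited values lie on a far larger scale than is usual for this unit (a library sums to between 3692500000 and 5908120000) and were used as relative values.

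Aldehyde dehydrogenases oxidize aldehydes to carboxylic acids with NAD+ or NADP+ as the cofactor, and so remove reactive aldehydes made by alcohol metabolism and lipid peroxidation. The ALDH1A enzymes turn retinal into retinoic acid, the ligand of the retinoic acid receptors. High activity of the ALDH1A enzymes is also widely used to mark stem-like cells in colon and other tumors.

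The DNA just upstream of the ALDH1A transcription starts is shown first, with its CG pairs, the main sites of DNA methylation. These genes were picked with their results known: ALDH1A2 and ALDH1A3 rose here and ALDH1A1 did not. Each sequence is the 250 bases before an annotated start, taken from RefSeq promoter windows and located by an exact and single match in GRCh37, and it reads 5′ to 3′ on the strand of the gene with every CG pair in capitals.
ALDH1A1 (chr9:75567970-75568219, minus strand): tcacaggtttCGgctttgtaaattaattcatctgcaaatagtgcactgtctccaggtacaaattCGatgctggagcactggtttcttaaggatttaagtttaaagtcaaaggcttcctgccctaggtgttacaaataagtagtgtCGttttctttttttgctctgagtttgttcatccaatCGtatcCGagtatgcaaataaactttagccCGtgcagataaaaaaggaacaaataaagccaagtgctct
ALDH1A2, upstream start (chr15:58357910-58358159, minus strand): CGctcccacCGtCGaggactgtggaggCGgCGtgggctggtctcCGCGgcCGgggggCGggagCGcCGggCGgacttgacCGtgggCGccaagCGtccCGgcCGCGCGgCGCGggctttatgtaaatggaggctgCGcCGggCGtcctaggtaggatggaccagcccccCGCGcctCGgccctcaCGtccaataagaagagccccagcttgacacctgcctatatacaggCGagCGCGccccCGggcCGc
ALDH1A2, internal start (chr15:58306222-58306471, minus strand): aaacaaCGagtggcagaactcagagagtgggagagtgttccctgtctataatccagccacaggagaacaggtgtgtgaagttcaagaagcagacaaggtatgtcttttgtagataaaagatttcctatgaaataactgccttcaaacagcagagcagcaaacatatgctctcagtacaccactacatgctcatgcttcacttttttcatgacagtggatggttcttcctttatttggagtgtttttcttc
ALDH1A3 (chr15:101419786-101420035, plus strand): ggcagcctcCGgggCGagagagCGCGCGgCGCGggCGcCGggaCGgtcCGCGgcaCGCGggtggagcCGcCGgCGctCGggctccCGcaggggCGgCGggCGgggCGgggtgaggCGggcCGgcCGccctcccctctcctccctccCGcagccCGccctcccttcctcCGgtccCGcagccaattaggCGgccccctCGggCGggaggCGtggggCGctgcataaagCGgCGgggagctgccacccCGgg

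The ALDH1A3 window held 38 CG pairs, more than 96.7% of the 35116 promoter windows of the same length in the RefSeq table. The upstream start of ALDH1A2 had 33 (more than 91.9% of windows), its internal start had 1, and ALDH1A1 had 6. The motif searched was CG, which reads the same on both strands, and 93.9% of all windows held at least 1, with a median of 11 and quartiles of 3 and 23. Windows were found for 7 of the 10 members. None was found for ALDH2, ALDH3A1 and ALDH3B2, of which ALDH3A1 fell and ALDH3B2 rose at 5 µM. Among the rest of the members with a window, the CG count was 23 for ALDH1B1 and 20 and 9 for the 2 starts of ALDH1L1. It was 22 and 9 for those of ALDH3A2, and 11 and 3 for those of ALDH3B1. All of these genes were lower at 5 µM than in the control, within 2-fold. A CG count describes the reference sequence only. Methylation was not analysed here, and a relation of CG count to expression was not tested.

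The members differed widely in level in the untreated cells. In the control, mean FPKM ± SD (n = 3 throughout) was 938502 ± 171961 for ALDH1A1, 829193 ± 76681 for ALDH3B1 and 643989 ± 20831 for ALDH2. These 3 genes made up most of the summed FPKM of the 10 members, at means of 31.5%, 27.96% and 21.8%. ALDH3A2 followed at 300361 ± 28504, ALDH3A1 at 118997 ± 6352, ALDH1L1 at 60732 ± 3586, ALDH1B1 at 44153 ± 5573 and ALDH1A3 at 28680 ± 327. ALDH3B2 was far lower at 3255 ± 1167, and ALDH1A2 was listed at 0 in all 3 control libraries. Of the neighbors in this order, ALDH1A1 and ALDH3B1 overlapped in their replicates and every other pair was apart.

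At 5 µM the order changed at its lower end: ALDH1A3 stood above ALDH3A1, and ALDH3B2 overlapped with ALDH1B1. ALDH3A1 also overlapped with ALDH1L1 at this dose. At 10 µM the replicates of ALDH1A1, ALDH3B1 and ALDH2 overlapped between neighbors, as did those of ALDH3A1, ALDH1A3, ALDH1L1, ALDH1B1 and ALDH3B2. The summed FPKM of the 10 members was 2967860 ± 259974 without 5-Aza, 1809960 ± 174711 with 5 µM and 1793500 ± 433160 with 10 µM.

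**Figure D1:**
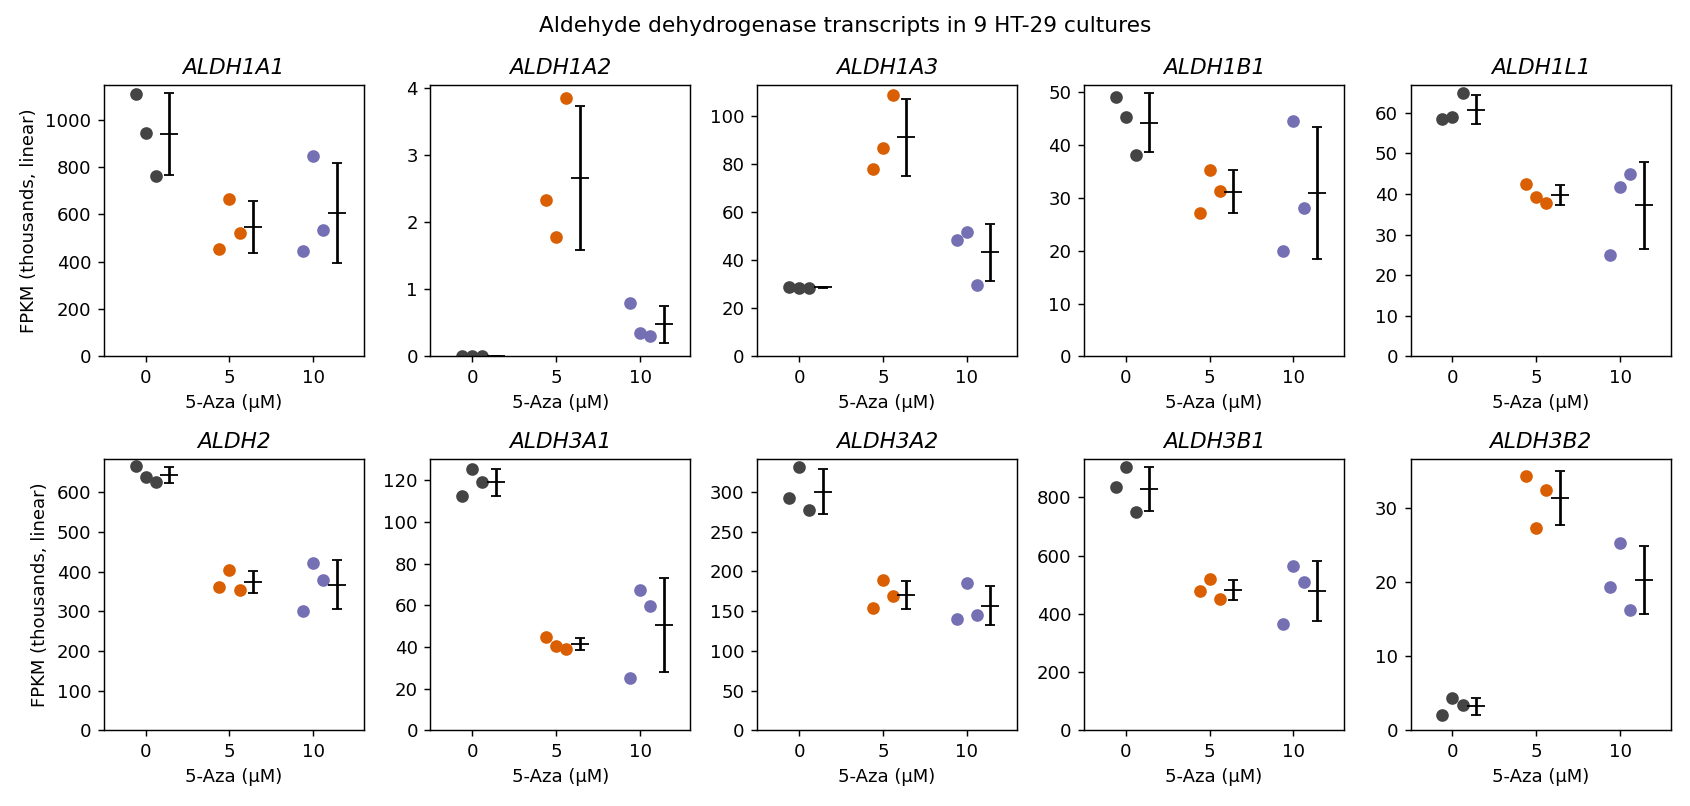
FPKM divided by 1000 (linear axes from 0) of each of the 10 aldehyde dehydrogenases in the 9 cultures, by 5-Aza dose in µM. Points are cultures, and the bars beside them give the mean ± SD of 3. ALDH1A2, ALDH1A3 and ALDH3B2 lie higher at 5 µM than in the control, and the other 7 genes lie lower.

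Doses were compared in pairs with limma on log2(FPKM + 1), with Benjamini-Hochberg adjustment over all genes tested. A gene is said to have risen or fallen where its adjusted p was at most 0.05 and its difference exceeded 2-fold. In bulk RNA, fewer cells that express a gene and less RNA per cell cannot be told apart. The 3 comparisons share groups of samples and are not independent of each other.

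At 5 µM 5-Aza against the control, ALDH1A2, ALDH1A3 and ALDH3B2 rose and ALDH3A1 fell. These are 4 of 10 members (40%), where 16.2% of the 20051 genes tested were called (14.1% up and 2.17% down). Without ALDH1A2, which passed the filter on low values only through the treated cultures, they are 3 of 9. ALDH3A1, which the study picked from its own expression results at this dose, stands in both counts. Neither count is therefore read as an excess over all genes. The other 6 members, ALDH1A1, ALDH1B1, ALDH1L1, ALDH2, ALDH3A2 and ALDH3B1, were lower in every 5 µM culture than in any control culture, with adjusted p from 0.00065 to 0.0383, and stayed within 2-fold. For ALDH1B1, ALDH1L1 and ALDH1A1 that adjusted p exceeded 0.05 in some alternative fits. This leaves aside limma's treat, which tests against a 2-fold difference and put all 6 above 0.05. Of the study's 2 reference genes, GAPDH was lower by a similar amount (log2 difference -0.72, adjusted p = 0.0095, limma), also with groups that did not overlap. ZNF311 overlapped with the control (log2 difference -0.14, adjusted p = 0.534). A decrease of this size is thus not particular to these 6 members. All 10 members thus had groups that did not overlap, 3 higher and 7 lower, where 52.7% of genes tested did not overlap (29.4% higher and 23.2% lower). The filter on low values, a minimum of 10, removed few genes: in control replicate 1, 16252 of the 16373 symbols above 0 reached it. This share and those of the other comparisons thus include genes at very low levels. They were not matched to the members' levels. The median log2 difference was -0.69 over the members and 0.14 over all genes tested. The members' median is the same for any positive value of ALDH1A2, whose fitted difference rests on the value added to 0 and is not given.

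ALDH1A3, which makes retinoic acid, had FPKM of 29035, 28614 and 28392 in the control cultures. It had 77734, 86681 and 108677 at 5 µM, so that the lowest treated culture was far above the highest control. The mean rose 3.17-fold, to 91030 ± 15924, with a log2 difference of 1.65 (SE 0.14, adjusted p = 0.00046 by limma). At 10 µM the cultures had 48251, 51699 and 29622, of which the third lay just above the controls. The log2 difference of 10 µM from the control was 0.55 (95% interval -0.01 to 1.11, adjusted p = 0.146), and ALDH1A3 was not called although the groups did not overlap. ALDH1A3 fell between 5 and 10 µM, to 0.474 of its 5 µM mean (log2 difference -1.10, SE 0.25, adjusted p = 0.0479).

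That last call was close to the limit. It was lost when any single culture was left out other than 10 µM replicate 2: without 10 µM replicate 1 the adjusted p was 0.0698, without 10 µM replicate 3 it was 0.0591, and without 5 µM replicate 1, 2 or 3 it was 0.12, 0.171 and 0.228. The log2 difference stayed between -1.25 and -0.85 in these fits. ALDH1A3 lies at chr15:101417919-101456831 of GRCh37 on the plus strand (ENSG00000184254). The annotation places ALDH1A3-AS1 on the opposite strand within it. Whether the counting used strand is not stated in the sources used here, so reads of the 2 genes cannot be told apart.

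ALDH1A2, the retinal dehydrogenase best known from embryonic development, was listed at 0 in all control cultures. At 5 µM it had 2338, 1782 and 3859 FPKM, and at 10 µM it had 801, 348 and 299. Every treated culture held some signal, and the 5 µM cultures were all above the 10 µM cultures. By the size of 1 fragment estimated from the lowest values, these levels stand for about 25.2, 18.3 and 44.5 fragments at 5 µM and 4.56, 3.13 and 2.28 at 10 µM. The limma test met the limits at 5 µM (adjusted p = 0.00043) and at 10 µM (adjusted p = 0.0172), but it sets the treated cultures against a group listed at 0 and depends on the value added before the logarithm. No fold is given against such a group, and an exact 0 in such a file can be a failed estimate.

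The 10 µM level of ALDH1A2 was 0.182 of the 5 µM mean, with an adjusted p of 0.0611, and was not called. It was called when 10 µM replicate 1 was left out (adjusted p = 0.0405). Its call at 10 µM against the control rests on few fragments. It was lost with a pseudocount of 1000 (log2 difference 0.55, adjusted p = 0.0727), without control replicate 2 (0.0532), without 10 µM replicate 1 (0.0565) and without 10 µM replicate 3 (0.0602). The annotated span of ALDH1A2, chr15:58245622-58790065 on the minus strand (ENSG00000128918), overlaps AQP9 and LIPC on the plus strand, both of which the files list as well.

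ALDH1A1, the retinal dehydrogenase with the highest mean level here, had 1107230, 944797 and 763480 FPKM in the control, and 453676, 664932 and 520271 at 5 µM. All 5 µM values were lower than the lowest control value (log2 difference -0.78, SE 0.19, adjusted p = 0.0185 by limma), short of a 2-fold difference. That p was 0.0517 without control replicate 2, 0.0677 without 5 µM replicate 1 and 0.0748 without 5 µM replicate 3. At 10 µM ALDH1A1 had 444086, 845882 and 533066, of which the second lay within the control range (log2 difference -0.67, 95% interval -1.28 to -0.05, adjusted p = 0.118).

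The balance between the retinal dehydrogenases was compared within each library, where any scaling common to all genes cancels. ALDH1A3 stood at 2.62%, 3.03% and 3.72% of ALDH1A1 in the control, at 17.1%, 13.04% and 20.9% at 5 µM, and at 10.9%, 6.11% and 5.56% at 10 µM. No culture of one dose reached into the range of another dose. The mean ratio was 5.45 times the control at 5 µM and 2.40 times at 10 µM. Each difference had p = 0.1 in a 2-sided exact permutation test, the smallest p that 3 against 3 allows, and 0.15 after adjustment over the 15 ratio tests made.

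**Figure D2:**
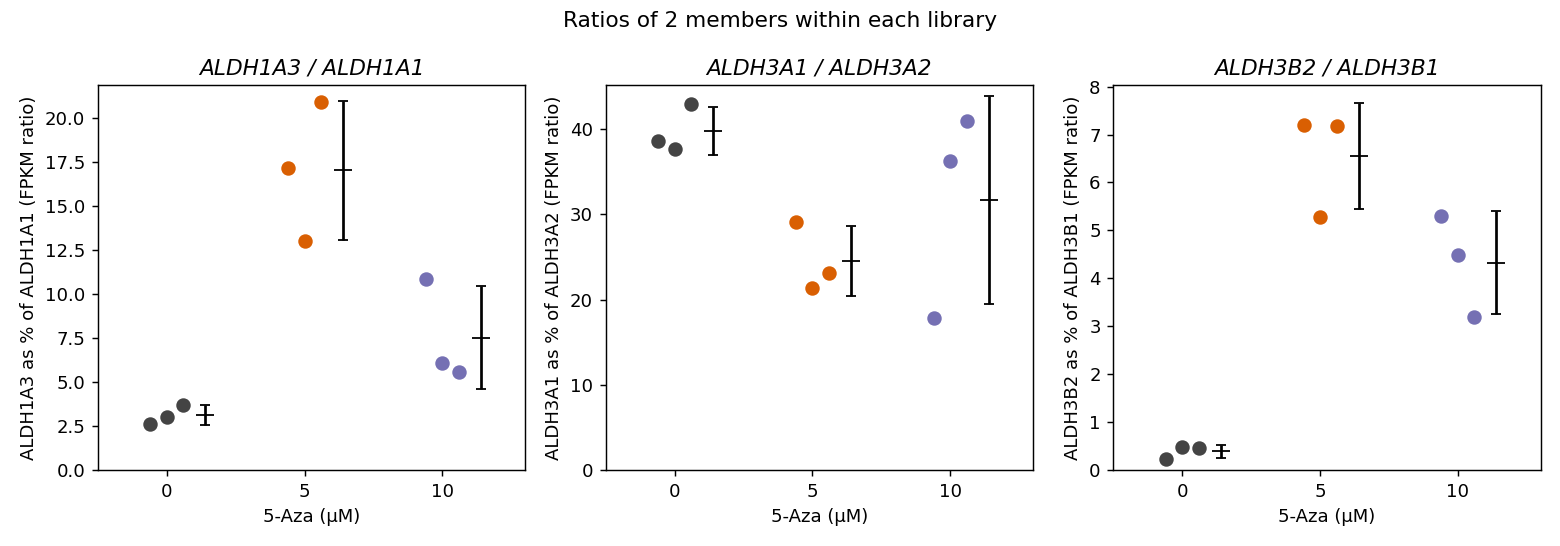
Ratio of the FPKM of 2 members within each of the 9 libraries, in percent on linear axes from 0, by 5-Aza dose in µM. Points are libraries, and the bars give the mean ± SD of 3. The ratio of ALDH1A3 to ALDH1A1 separates all 3 doses, and that of ALDH3A1 to ALDH3A2 at 10 µM overlaps with the other doses.

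ALDH3A1, an enzyme of aromatic and lipid-derived aldehydes that is abundant in the cornea, was the member that fell. It had 112584, 125286 and 119122 FPKM in the control and 44801, 40401 and 39003 at 5 µM. The replicates were close together at both doses, and the 5 µM mean of 41401 ± 3025 was 0.348 of the control mean (log2 difference -1.52, SE 0.09, adjusted p = 0.000202 by limma). At 10 µM the cultures spread out, to 25071, 67408 and 59444, all still lower than the controls. ALDH3A1 fell there too, to 0.426 of the control mean (log2 difference -1.35, SE 0.35, adjusted p = 0.0441). Between 5 and 10 µM its difference was 0.17 on the log2 scale, with a 95% interval from -0.69 to 1.03.

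The call of ALDH3A1 at 10 µM was lost when any single culture other than 10 µM replicate 2 was left out. Without control replicate 1, 2 or 3 the adjusted p was 0.11, 0.136 and 0.0985, and without 10 µM replicate 3 it was 0.094. Without 10 µM replicate 1, the lowest culture, the log2 difference was -0.91 with an adjusted p of 0.0346, so that the fold limit was missed. The call was also lost when the libraries were scaled to the same FPKM total (log2 difference -0.98, adjusted p = 0.0498). Replicate 1 was the shallowest library at 10 µM, with about 76.1 fragments estimated for ALDH3A1 against 323 and 241 in replicates 2 and 3. Its genes lay at a median of -0.117 from the mean of the 10 µM group on the log2 scale, and those of replicate 2 at 0.236. The part of this shift in the spread of the members at 10 µM was not tested.

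ALDH3A1 (ENSG00000108602, chr17:19641297-19652256, minus strand) lies near ALDH3A2 (ENSG00000072210, chr17:19551449-19589073, plus strand), a fatty aldehyde dehydrogenase of the endoplasmic reticulum that is mutated in Sjögren-Larsson syndrome. ALDH3A2 had 291982, 332116 and 276986 FPKM in the control and 153648, 189086 and 168907 at 5 µM. It was thus lower in every treated culture, by 0.82 on the log2 scale (SE 0.11, adjusted p = 0.0018, limma), and within 2-fold. At 10 µM it had 140227, 185699 and 145277, again lower throughout (log2 difference -0.94, SE 0.15, adjusted p = 0.0125). Without 10 µM replicate 2 that difference was -1.07 and was called (adjusted p = 0.0043).

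Within each library, ALDH3A1 stood at 38.6%, 37.7% and 43.0% of ALDH3A2 in the control and at 29.2%, 21.4% and 23.1% at 5 µM. The 5 µM ratios were all lower than the control ratios (p = 0.1, exact permutation test, 0.15 adjusted). At 10 µM the ratios were 17.9%, 36.3% and 40.9% and overlapped with both other doses.

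ALDH3B2 (ENSG00000132746, chr11:67429626-67448695, minus strand) and ALDH3B1 (ENSG00000006534, chr11:67776048-67796749, plus strand) are related genes on chromosome 11. No stretch of 100 bases was shared between annotated transcripts of any of the 45 pairs of members, so a read of that length without errors fits a single member. ALDH3B2 had 2005, 4317 and 3443 FPKM in the control, 34392, 27344 and 32449 at 5 µM and 19294, 25293 and 16287 at 10 µM. All treated cultures were above all controls. ALDH3B2 rose 9.64-fold at 5 µM (log2 difference 3.33, SE 0.32, adjusted p = 0.00068) and 6.23-fold at 10 µM (log2 difference 2.69, SE 0.38, adjusted p = 0.0093, limma). The control values rest on about 6.11, 19.9 and 22.4 estimated fragments, against 191 to 255 at 5 µM, which limits the precision of both folds.

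The 10 µM cultures of ALDH3B2 were all lower than the 5 µM cultures, yet the difference of -0.65 on the log2 scale (95% interval -1.16 to -0.13) was not called (adjusted p = 0.135). ALDH3B1, which acts on aldehydes from lipid peroxidation, had 834137, 903282 and 750160 FPKM in the control and 477387, 518246 and 451649 at 5 µM (log2 difference -0.78, SE 0.09, adjusted p = 0.00136 by limma). It had 363393, 563865 and 509336 at 10 µM (log2 difference -0.81, SE 0.19, adjusted p = 0.0339). Both differences were within 2-fold, and no treated culture reached the controls. As a percentage of ALDH3B1, ALDH3B2 was at 0.240%, 0.478% and 0.459% in the control, 7.20%, 5.28% and 7.18% at 5 µM, and 5.31%, 4.49% and 3.20% at 10 µM. Both treated groups were above the control in this ratio (p = 0.1 each, exact permutation test), and they overlapped with each other.

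Among the mitochondrial members, ALDH2, the main enzyme of acetaldehyde oxidation, was the most even between replicates. It had 666700, 639496 and 625772 FPKM in the control, 361936, 404549 and 353161 at 5 µM, and 300049, 422194 and 379506 at 10 µM. Treated and control cultures did not overlap at either dose. The log2 difference from the control was -0.79 at 5 µM (SE 0.07, adjusted p = 0.00065) and -0.82 at 10 µM (SE 0.16, adjusted p = 0.0194, limma), each within 2-fold. The difference between the treated doses was -0.04 (95% interval -0.41 to 0.34).

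ALDH1B1, also mitochondrial and active on acetaldehyde, had 49099, 45243 and 38116 FPKM in the control and 27067, 35138 and 31212 at 5 µM. It was lower in each treated culture, with the smallest difference of the 10 members at that dose (log2 difference -0.50, SE 0.15, adjusted p = 0.0383, limma). That p was 0.0812 with the replicate block, 0.195 with all 9 samples in one fit, and from 0.1 to 0.103 without control replicate 1 or 2 or without 5 µM replicate 1 or 3. At 10 µM it had 19946, 44510 and 28071, and the second of these lay within the control range (log2 difference -0.59, 95% interval -1.29 to 0.11, adjusted p = 0.198).

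ALDH1L1, the cytosolic 10-formyltetrahydrofolate dehydrogenase of folate metabolism, had 58382, 58953 and 64860 FPKM in the control. At 5 µM it had 42555, 39285 and 37710, lower throughout (log2 difference -0.61, SE 0.09, adjusted p = 0.0035, limma, and 0.0605 with all 9 samples in one fit). At 10 µM it had 25028, 41627 and 44926, lower throughout as well, with a wider spread (log2 difference -0.75, 95% interval -1.31 to -0.19, adjusted p = 0.0726). It was not called at either dose.

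At 10 µM against the control, the 3 members called (ALDH1A2 and ALDH3B2 up, ALDH3A1 down) are 30% of the 10, or 2 of 9 without ALDH1A2, where 7.48% of the 18928 genes tested were called (4.07% up and 3.4% down). ALDH3A1 stands in these counts too, against the same control cultures as at 5 µM, so they are not read as an excess either. A further 3, ALDH2, ALDH3A2 and ALDH3B1, were lower with an adjusted p under the limit and within 2-fold. GAPDH had a log2 difference of -0.68 and ZNF311 of 0.21 at this dose, both with overlapping groups (adjusted p = 0.259 and 0.536, limma). The groups did not overlap for 8 members (3 higher and 5 lower), where 41.1% of genes tested did not overlap (14.4% higher and 26.7% lower). Between 5 and 10 µM, 1 member was called (10%), where 4.95% of 20085 genes were called (0.129% up and 4.82% down). The groups of 7 members overlapped, and those of ALDH1A2, ALDH1A3 and ALDH3B2 were lower at 10 µM, where 29.6% of genes did not overlap (4.37% higher and 25.3% lower). The 3 lower members are a share near that 25.3%, so nothing particular to the members is read from it.

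**Figure D3:**
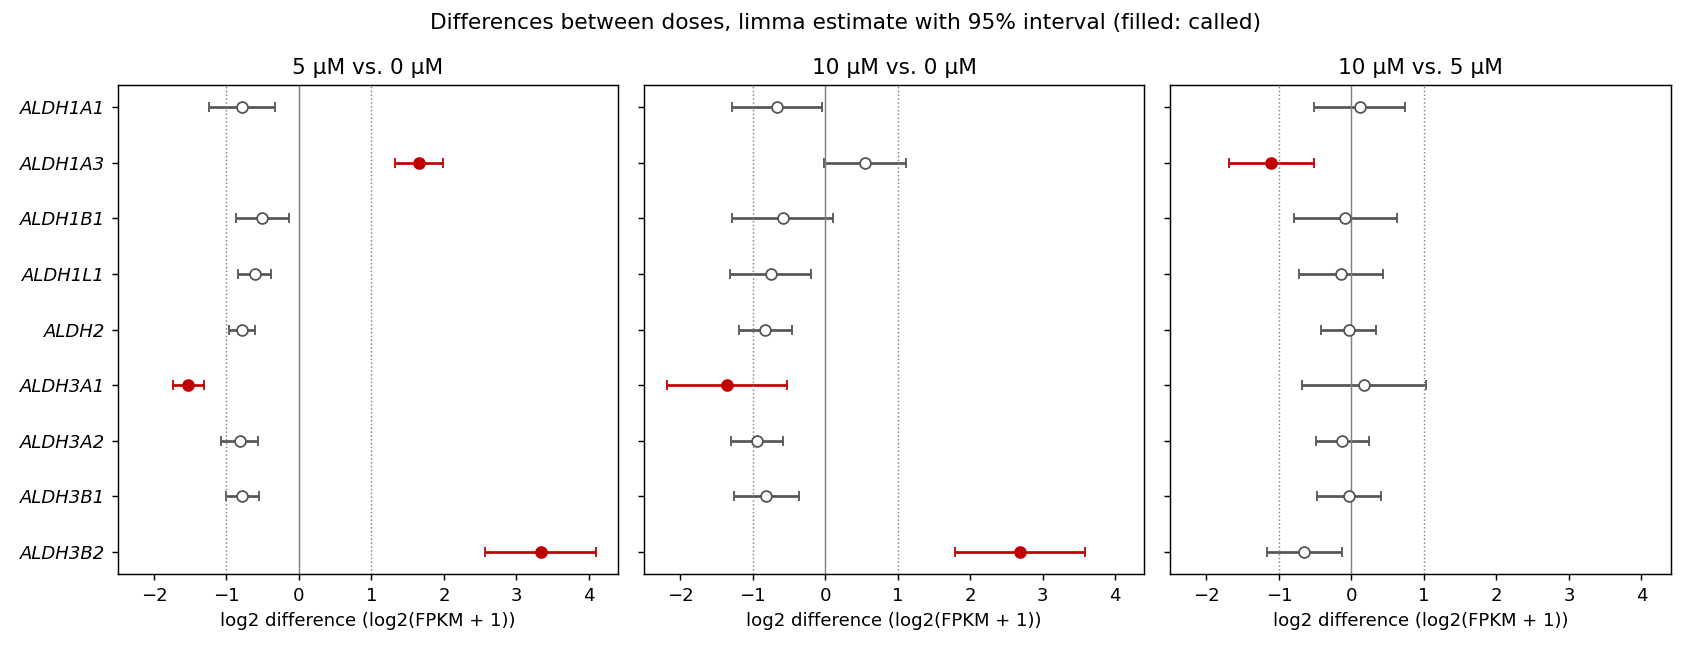
Log2 differences on the log2(FPKM + 1) scale for 9 members in the 3 comparisons, with 95% intervals from limma. Filled points were called, and dotted lines mark 2-fold. ALDH1A2 is left out because it is listed at 0 in the control. ALDH3A1 is the only one of these genes called down at both doses against the control.

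The libraries as deposited were not centered alike. Over genes above 0 in all 6 samples of a comparison, the median log2 difference was -0.04 at 5 µM against the control, -0.24 at 10 µM against the control and -0.24 at 10 µM against 5 µM. Relative to these medians, the differences at 5 µM were -1.49 for ALDH3A1, 1.69 for ALDH1A3 and 3.37 for ALDH3B2. At 10 µM they were -1.12, 0.78 and 2.92, and for ALDH1A3 between the treated doses -0.86. The 6 members that were lower within 2-fold at 5 µM lay between -0.78 and -0.47 of that median. Scaling to equal FPKM totals moved the median to 0.25 at 5 µM and 0.14 at 10 µM, and scaling to equal totals of estimated fragments moved it to 0.27 and 0.28. The direction of all 10 members against the control was the same under each scaling. Between 5 and 10 µM, the sign flipped for 5 members near 0 (ALDH1B1, ALDH1L1, ALDH2, ALDH3A2 and ALDH3B1) under at least 1 scaling. Depth, estimated from the same steps of low values, was between 15043239 and 41366986 fragments per library.

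HT-29 is of epithelial origin, and all 9 epithelial markers checked were above 0 in all 9 libraries. Their summed FPKM was between 83701700 and 100624000 in the control, between 33202200 and 37509000 at 5 µM and between 26738500 and 46609800 at 10 µM, and most of this sum is KRT8, KRT18 and KRT19, keratins of simple epithelia. These 3 fell at 5 µM and CDX1 rose, while EPCAM (0.859 of the control mean) and CDH1 (0.960) overlapped with the control, and KRT20 (0.724), VIL1 (0.723) and CDX2 (0.603) were lower within 2-fold. At 10 µM KRT19, KRT20 and CDX2 fell. Over all genes tested, 14.1% rose and 2.17% fell at 5 µM, and 4.07% rose and 3.4% fell at 10 µM. Of 11 markers of fibroblasts, immune, endothelial and muscle cells, 6 rose at 5 µM, where 14.1% of all genes tested rose. Among the 6 were COL1A1 (a collagen) and DES (desmin of muscle). CD3E, also among them, passed the filter on low values only through the treated cultures. COL1A2, another of the 6, was listed at 0 in control replicates 1 and 2, and DES in control replicate 1. The calls of CD3E, COL1A2 and DES thus depend on the value added to 0, and the count is not read as an excess. The sum of the 11 markers was at most 59661 in the control, between 102511 and 121078 at 5 µM and between 74048 and 84297 at 10 µM. CD3E, a T cell gene, was listed at 0 in all controls, and DCN of fibroblasts was listed at 0 in all 5 µM libraries. Some of these marker levels thus differed between the doses and others did not, and any part of this in the members' differences was not tested.

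The remaining 9 symbols of the family were read in the same fits. At 5 µM, 2 rose and 0 fell by limma, with 2 higher and 4 lower at an unadjusted p under 0.05. Counts at an unadjusted p, here and below, have no share over all genes beside them and are not read as a result. Over all genes tested, 14.1% rose and 2.17% fell at 5 µM, and 4.07% rose and 3.4% fell at 10 µM against the control. ALDH1L2, the mitochondrial partner of ALDH1L1 in folate metabolism, rose 25.4-fold, from 1267 ± 47 to 32177 ± 2744 FPKM (log2 difference 4.66, SE 0.20, adjusted p = 0.000112, limma). Its control values rest on about 14.1, 22.3 and 29.4 estimated fragments, which limits the precision of this fold. ALDH8A1 rose 2.62-fold (adjusted p = 0.0188) from a control level of about 4.04 to 10.1 estimated fragments. At 10 µM, ALDH1L2 alone was called against the control (8408 ± 729 FPKM, 6.64-fold) and alone against 5 µM (0.261 of the 5 µM mean, adjusted p = 0.0043). Untreated, ALDH1L2 stood at a mean of 2.09% of ALDH1L1, against 81.2% with 5 µM and 24.4% with 10 µM, and the 3 doses did not overlap (p = 0.1 for each pair, exact permutation test). The median log2 difference of these 9 genes was -0.15 at 5 µM and -0.27 at 10 µM against the control.

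**Figure D4:**
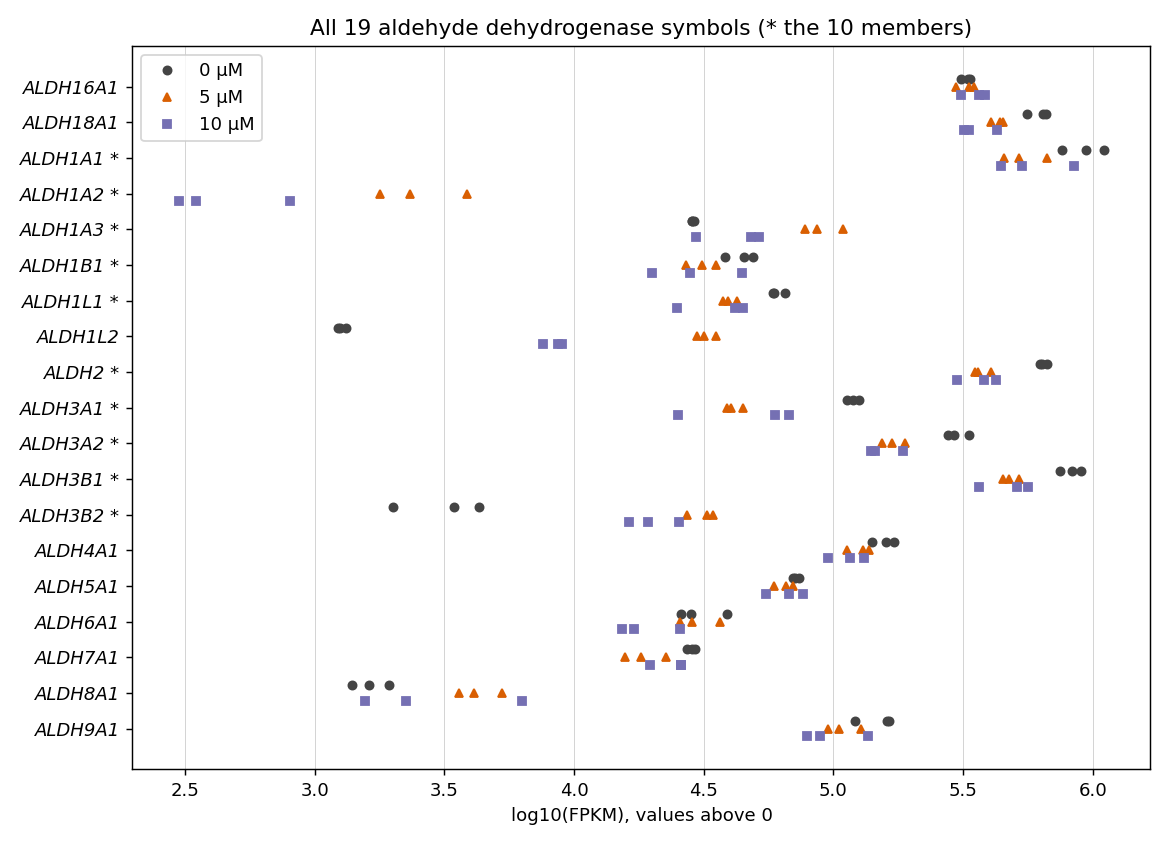
Level of all 19 aldehyde dehydrogenase symbols as log10(FPKM), for values above 0, in the 9 libraries, with the 10 genes followed here marked by a star. ALDH1A2 is listed at 0 in the control and has no control points. ALDH1L2, ALDH3B2 and ALDH1A3 lie higher at 5 µM than in the control, and ALDH3A1 lies lower.

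Around the ALDH1A enzymes, 20 of 24 genes of retinoid metabolism and its receptors could be tested. At 5 µM, 3 rose and 3 fell, where 14.1% of all genes tested rose and 2.17% fell, so the share that rose is near the background. Among those that rose, RDH8 of retinal reduction rose 28.7-fold from a low level (log2 difference 4.83, adjusted p = 0.00065) and RDH12 rose 2.52-fold (1.36, adjusted p = 0.0071, limma). STRA6, the retinol uptake receptor, fell to 0.463 of the control (-1.11, adjusted p = 0.00089), as did DHRS3, a retinal reductase (0.419, adjusted p = 0.000202), and BCMO1, which cleaves carotene to retinal (0.445, adjusted p = 0.0069). At 10 µM, 0 genes of this list rose by limma (2 were higher at an unadjusted p under 0.05), and STRA6, DHRS3 and RARG, a retinoic acid receptor, fell. Over all genes tested, 4.07% rose and 3.4% fell at 10 µM against the control. RDH8 fell between 5 and 10 µM (log2 difference -2.68). The median of the list was -0.21 at 5 µM and -0.51 at 10 µM, where all genes tested had 0.14 and -0.15.

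Other enzymes of small aldehydes and ketones were also read. Of 13 aldo-keto and carbonyl reductases, 2 rose and 3 fell at 5 µM, and the same 5 were called at 10 µM in the same directions. Over all genes tested, 14.1% rose and 2.17% fell at 5 µM, and 4.07% rose and 3.4% fell at 10 µM. The share of reductases that rose at 5 µM is near the background. The call of CBR3 at 10 µM was close to the limit (adjusted p = 0.0497, limma). AKR1B10, a reductase of retinal and lipid aldehydes, fell to 0.191 of the control at 5 µM (log2 difference -2.39, adjusted p = 0.000108, limma), with AKR1B15 at 0.184 and AKR1C3 at 0.413. AKR1B10 and AKR1B15 are close copies that can share reads, so their separate values are uncertain. AKR1B1, aldose reductase, rose 7.94-fold and CBR3 3.09-fold. Of 6 alcohol dehydrogenases tested at each dose, 0 were called by limma against the control. At an unadjusted p under 0.05 there were 0 at 5 µM and 1 at 10 µM. Only ADH5 was at a high level (233850 FPKM in the control), and ADH6 had 1169 FPKM there. The others tested at 5 µM had control means of at most 409 FPKM and SE from 2.17 to 2.72 on the log2 scale. A change in them could hardly have been called.

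Of 15 folate enzymes tested beside ALDH1L1, FTCD, which feeds formimino groups from histidine into folate, rose 10.8-fold at 5 µM (adjusted p = 0.0037, limma). MTHFD2, a mitochondrial folate enzyme at a high level, fell to 0.443 (adjusted p = 0.0015). At 10 µM these were called in the same directions, and TYMS, thymidylate synthase, rose as well (log2 difference 1.38, adjusted p = 0.0050). No other gene of this list was called against the control. Over all genes tested, 14.1% rose and 2.17% fell at 5 µM, and 4.07% rose and 3.4% fell at 10 µM.

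By position, 9 genes annotated next to members within 50 kb were tested. Of these, 2 rose and 0 fell at 5 µM, where 14.1% of all genes tested rose and 2.17% fell. At 5 µM, SLC47A2, a cation exporter 19005 bp from ALDH3A1 on the same strand, whose annotated span also overlaps that of ALDH3A2, rose 2.90-fold (log2 difference 1.59, adjusted p = 0.0198, limma), opposite to ALDH3A1. ACY3, an aminoacylase 11425 bp from ALDH3B2, rose 2.88-fold (1.62, adjusted p = 0.0322), in the direction of ALDH3B2. LRRK1, 2701 bp after ALDH1A3, was lower by 0.75 on the log2 scale and within 2-fold (adjusted p = 0.0059), while ALDH1A3 rose. The genes beside ALDH3B1, UNC93B1 and NDUFS8, were lower within 2-fold (log2 differences -0.66 and -0.58), as ALDH3B1 was. At 10 µM against the control 0 of these neighbors were called by limma, where 4.07% of all genes tested rose and 3.4% fell. At an unadjusted p under 0.05, 2 were higher and 4 lower.

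The genes with profiles most like those of 2 members over the 9 samples were listed by Pearson correlation of log2(FPKM + 1), as a description over samples that share the doses. For ALDH3A1 these were CHTOP (r = 0.986), CLDN4, a tight junction claudin (0.984), and RANGRF, SMAGP and C16orf74 (0.983 each), among 11791 genes compared. For ALDH1A3 they included N4BP2 (0.992), TNFRSF11B, the decoy receptor osteoprotegerin (0.989), ODF2 (0.988) and PDE5A, a cyclic GMP phosphodiesterase (0.983), among 12167 genes. TNFRSF11B had mean FPKM of 14242, 54458 and 22543 at 0, 5 and 10 µM, a profile with the same peak at 5 µM as ALDH1A3. Pearson r does not weigh the size of a change. CHTOP had mean FPKM of 405428, 318617 and 335908 at 0, 5 and 10 µM. All genes named for ALDH3A1 had smaller relative decreases than ALDH3A1 at both doses.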

How the data were processed

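Paired-end RNA-Seq of 9 HT-29 cultures, 3 at each 5-Aza dose, was grouped by the sample labels. The authors filtered reads (FASTX-Toolkit), mapped them by TopHat to hg19 and had Cufflinks compute FPKM for each gene. The deposited files hold these FPKM values, not the authors' HTSeq counts, so no count model was fitted. Depth was estimated from the step of low values: in microRNA genes 110 nucleotides long, each of the 46 values above 0 was a whole multiple (tolerance 0.01) of 1 step per library. The step was set from these same values, and the smallest in each library fits by construction, so this is no independent check. For longer genes the step followed annotated length, within 15% for 135 of 233 genes, so fragment numbers are estimates. Counting error limits genes of few fragments and is not modeled by the test.

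Repeated symbols (543) were summed. Each comparison used its 6 samples in limma 3.58.1 under R 4.3.3 (lmFit, eBayes with trend) on log2(FPKM + 1), for genes whose largest value reached 10 in either group, without a replicate block. Fold changes given as such are ratios of FPKM means. Ratios within libraries were compared by exact permutation. Positions and gene models are from GENCODE v44 lifted to GRCh37, and promoter windows from the RefSeq table (GRCh38.p14). Other steps used numpy 2.4.6, pandas 2.3.3 and scipy 1.17.1. The fit was tested on simulated data.

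The 10 members are named in every comparison, and of other lists the called genes (at most 6), the genes next to members within 50 kb and the 5 most alike profiles of ALDH3A1 and ALDH1A3. Some results under this rule are not reported here. Members and lists were chosen with earlier results of these data known. Alternatives were pseudocounts of 0.1 and 1000, no filter, a minimum of 1000 in each replicate of either group, largest entries of repeated symbols, all 9 samples in one fit, the replicate block, median-of-ratios and FPKM-total scaling, no fold limit, limma's treat, each replicate left out, and, chosen after seeing the data, scaling to equal totals of estimated fragments.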

Additional observations from a re-analysis of the deposited data

How the results depend on the processing

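At 5 µM against the control, 3 members were called up and 1 down under every alternative, except that 7 were down with no fold change threshold. Of the 6 members lower within 2-fold there, the adjusted p exceeded 0.05 for ALDH1B1 and ALDH1L1 with the FPKM total (0.188 and 0.0803) and with estimated fragments (0.183 and 0.123). At 10 µM against the control (2 up, 1 down), 1 member was called up with a pseudocount of 1000 and with a minimum of 1000 in each replicate of either group, which gave no value for ALDH1A2, and 0 with treat. The members called down there were 0 with no filter on low values, with scaling to the same FPKM total or to the same total of estimated fragments and with treat, and 4 with no fold change threshold. ALDH1A3 was called up at 10 µM (1.06, adjusted p = 0.0175) with scaling to estimated fragments. Between 5 and 10 µM, 0 members were called down in place of 1 with a pseudocount of 0.1, no filter, median-of-ratios scaling, either total scaling or treat, and 2 with a pseudocount of 1000 or a minimum of 1000. Leaving out single replicates gave 1 to 2 up and 0 to 2 down at 10 µM against the control, and 0 to 1 down between the treated doses. The cause was not tested.

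Differences between 5 and 10 µM that changed sign were those of members not called. With median-of-ratios scaling the log2 difference was 0.16 for ALDH1B1, 0.10 for ALDH1L1, 0.20 for ALDH2, 0.11 for ALDH3A2 and 0.21 for ALDH3B1. With the FPKM total it was 0.0080 for ALDH1B1, 0.057 for ALDH2 and 0.059 for ALDH3B1, and with estimated fragments 0.12 for ALDH1B1, 0.066 for ALDH1L1, 0.17 for ALDH2, 0.084 for ALDH3A2 and 0.18 for ALDH3B1. Leaving out single replicates gave -0.15 to 0.32 for ALDH1A1, -0.39 to 0.19 for ALDH1B1, -0.30 to 0.12 for ALDH1L1, -0.14 to 0.10 for ALDH2, -0.098 to 0.62 for ALDH3A1 and -0.16 to 0.15 for ALDH3B1.

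Same-numbered replicates of different doses showed no shared deviation (r from -0.074 to 0.086 in 9 pairs, against -0.156 to 0.1 in the 18 pairs of different numbers). Whether the cultures were handled in pairs cannot be told from 3 libraries per dose. With the replicate block the members called down between 5 and 10 µM went from 1 to 0 (ALDH1A3, adjusted p = 0.0919) and no other member call changed. All genes called there went from 26 up and 969 down to 11 and 407.

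Over all genes, calls at 5 µM were 2818 up and 436 down, 3582 and 167 with the FPKM total, 3649 and 156 with estimated fragments, 4263 and 3553 with no fold change threshold, and 1463 and 70 with treat. At 10 µM against the control they were 771 and 644, 1124 and 286 with median-of-ratios scaling, 1362 and 164 with the FPKM total, 1762 and 105 with estimated fragments, 1174 and 768 with all 9 samples in one fit, 1020 and 1837 with no threshold, and 145 and 16 with treat. Leaving out replicates gave 337 to 819 up and 165 to 1500 down. Between 5 and 10 µM, genes up were 65, 42 and 56 with the 3 scalings, 64 with no threshold and 7 with treat (374 down), and 12 to 64 up and 176 to 1873 down with replicates left out.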
